A study of Mus musculus with 44 samples.

Results

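Cyclins are regulatory proteins whose levels rise and fall through the cell cycle, and cyclin-dependent kinases (CDKs) are the enzymes they switch on. The genes described here are 8 mouse cyclins (Ccnd1, Ccnd2, Ccnd3, Ccne1, Ccne2, Ccna2, Ccnb1 and Ccnb2) and 2 kinases (Cdk1 and Cdk6), taken from a list of names that sets no condition on their measured values but was drawn up with earlier results of these data known. All 10 were measured in the tumor RNA table, which lists 16078 genes, and in the RNA table of treated tumor lines, which lists 15926. The single-cell library labelled fGTS2 gave values for 10 of them among 16577 listed genes. Values for 9 were used from the library labelled GTML_SOX9-GFP, which lists 17546 genes, and Ccnd2 was not analysed here in that library. Open chromatin was read at the regions centred within 10 kb of a start of these genes, which were 22 of 88981 regions in the table of lines and GTS sources and 22 of 88258 in the table of GFP and nonGFP fractions.

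The study concerns medulloblastoma, a tumor of the cerebellum, its recurrence, and the part played by cells that carry the transcription factor SOX9. Bulk RNA came from 8 GTML tumors and 6 GTS tumors, and from the tumor lines GTML3 and preGTS1 given DMSO, a solvent control, or DOX, with 3 libraries per condition. As background, GTML mice carry a MYCN transgene under a doxycycline-regulated promoter that is driven in cells with an active Glt1 promoter and is silenced by doxycycline. GTS mice add a transactivator under the Sox9 promoter that doxycycline switches on. Chromatin was assayed by ATAC-seq, in which a transposase cuts accessible DNA, in 2 libraries each of the 4 treated groups of lines, of GTS1 and GTS2, and of cell fractions named GFP and nonGFP. GTML3 and preGTS1 are 1 line each. The labels used here do not say how preGTS1, GTS1, GTS2 and fGTS2 were derived or how long DOX was given. They also do not say whether replicates were separate cultures. Where replicates were not separate cultures, p-values measure only the spread between these libraries.

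In the mammalian cell cycle, D-type cyclins with Cdk4 or Cdk6 act in G1, the phase before DNA synthesis, and phosphorylate the retinoblastoma protein, which frees the E2F transcription factors. E-type cyclins act at the entry into S phase, when DNA is copied; cyclin A2 acts in S phase and G2; and the B-type cyclins with Cdk1 drive mitosis. Cyclin D1 and cyclin D2 are known to take part in the growth of cerebellar granule neuron progenitors, the cells from which some medulloblastomas arise.

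Promoter letters are shown for 4 members whose RNA fell strongly with DOX in 1 or both lines and whose sequence was matched, and for contrast Cdk6, whose RNA hardly moved. Each run is the 250 bases before the gene's start in RefSeq, on build GRCm38.p6 and on the strand of the gene, with motif matches in capitals. The motifs searched on both strands were CCAAT (the NF-Y box, which reads ATTGG on the other strand), TTTGAA (a cell cycle homology region, CHR, of mitotic genes), TTTCCCGC and TTTGGCGC (E2F sites) and CACGTG (an E-box of the MYC family). No match overlapped another.
Cdk1: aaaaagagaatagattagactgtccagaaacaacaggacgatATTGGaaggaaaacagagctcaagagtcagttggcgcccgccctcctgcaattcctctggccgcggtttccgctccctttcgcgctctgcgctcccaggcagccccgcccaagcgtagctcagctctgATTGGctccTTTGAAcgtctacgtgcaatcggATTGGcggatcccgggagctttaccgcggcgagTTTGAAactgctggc
Ccnb1: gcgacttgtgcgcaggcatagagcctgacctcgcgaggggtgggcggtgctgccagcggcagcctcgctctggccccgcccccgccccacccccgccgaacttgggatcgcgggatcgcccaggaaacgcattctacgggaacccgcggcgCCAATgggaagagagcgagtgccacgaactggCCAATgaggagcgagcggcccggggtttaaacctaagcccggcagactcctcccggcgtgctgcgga
Ccnb2: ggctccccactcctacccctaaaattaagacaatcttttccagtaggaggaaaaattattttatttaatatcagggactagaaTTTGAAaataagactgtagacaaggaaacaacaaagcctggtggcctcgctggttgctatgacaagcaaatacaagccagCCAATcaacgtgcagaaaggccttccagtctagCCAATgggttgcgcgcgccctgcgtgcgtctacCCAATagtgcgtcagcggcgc
Ccne1: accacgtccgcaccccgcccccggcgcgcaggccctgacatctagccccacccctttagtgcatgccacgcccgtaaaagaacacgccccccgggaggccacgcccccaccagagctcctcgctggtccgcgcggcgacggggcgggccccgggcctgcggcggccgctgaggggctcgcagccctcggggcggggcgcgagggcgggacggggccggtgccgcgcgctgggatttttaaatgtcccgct
Cdk6: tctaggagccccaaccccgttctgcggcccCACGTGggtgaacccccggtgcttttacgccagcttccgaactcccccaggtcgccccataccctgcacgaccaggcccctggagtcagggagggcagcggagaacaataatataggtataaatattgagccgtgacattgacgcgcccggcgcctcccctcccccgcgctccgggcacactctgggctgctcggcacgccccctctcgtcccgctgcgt

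The Cdk1 window, chr10:69352913-69353162 on the minus strand, held 3 CCAAT boxes and 2 CHR elements. The Ccnb2 window, chr9:70421555-70421804 on the minus strand, held 3 CCAAT boxes and 1 CHR element. At Ccnb1, chr13:100786487-100786736 on the minus strand, there were 2 CCAAT boxes. The Ccne1 window, chr7:38107491-38107740 on the minus strand, held none of the motifs, and the Cdk6 window, chr5:3343643-3343892 on the plus strand, held 1 E-box. Among 32851 RefSeq promoter windows of the same length, 33.9% held CCAAT, 16.0% held the CHR letters, 6.02% held the E-box, and 0.895% and 0.417% held the respective E2F strings. CCAAT and CHR stood together in 5.55% of windows, so both occur widely outside this family. Ccnd3 had 2 listed starts, of which 1 window held 1 CCAAT box. Sequences were matched for 6 of the 10 members; Ccna2, Ccnd1, Ccnd2 and Ccne2 are named only. A match describes letters and was not tested as a binding site.

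For the series as a whole, the treated-line RNA libraries held 10.9 to 24.7 M reads, and Mycn RNA (log2 CPM, where CPM is a count scaled to a common library total) ranged from 8.42 to 8.69 in GTML3 under DMSO and from 4.80 to 5.07 under DOX. In preGTS1 Mycn ranged from 10.5 to 10.9 under DMSO and from 5.54 to 6.13 under DOX; these values do not separate a transgene from the mouse gene. Read counts of GTML3 DOX replicate 1 differed from those of replicates 2 and 3 by a chi-square per degree of freedom of 60.4 and 85.1, against 4.67 between the latter. In preGTS1, DMSO replicate 3 differed from replicates 1 and 2 by 30.06 and 28.98, against 9.956 between those. The preGTS1 DOX replicate 2 differed from replicates 1 and 3 by 33.15 and 36.3, against 14.29 between those. The tumor columns carry 1 of 2 batch numbers, the lower on 6 GTML and 2 GTS tumors and the higher on 2 GTML and 4 GTS tumors, so the tumor model has a batch term. None of 11 microglia and macrophage markers was listed for the lines, whereas all 11 were for the tumors.

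DOX in GTML3 came with lower RNA of 7 of the 10 members, those of the E-type, A-type and B1-type cyclins, Cdk1, Ccnd1 and Ccnd2, by 1.83-fold to 10.6-fold, and with higher RNA of none. Of all 15926 genes tested, 65.8% passed the limma threshold (adjusted p under 0.05), 31.4% lower and 34.5% higher. The median log2 fold change was -2.42 over the members and 0.05 over all genes. Fewer cycling cells and less RNA per cell cannot be told apart in bulk RNA. The summed CPM of 50 other G2/M genes ranged from 11827 to 12550 under DMSO and from 2817 to 3088 under DOX, and the part of cell cycle phase in the members' values was not tested.

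In preGTS1, DOX came with lower RNA of 7 members by 1.23-fold to 30.3-fold, and with higher RNA of 1, Ccnd2. Here 68.3% of all genes passed the limma threshold, 33.7% lower and 34.5% higher. The members' median log2 fold change was -3.60, against 0.04 for all genes. The G2/M genes summed to 12989 to 14241 CPM under DMSO and 2369 to 2631 under DOX, while 6 neuronal markers summed to 328 to 355 CPM under DMSO and 1296 to 1393 under DOX. Those neuronal sums in GTML3 were 758 to 770 CPM and 1148 to 1209 CPM. The part of these markers in the members' changes was not tested.

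**Figure D1:**
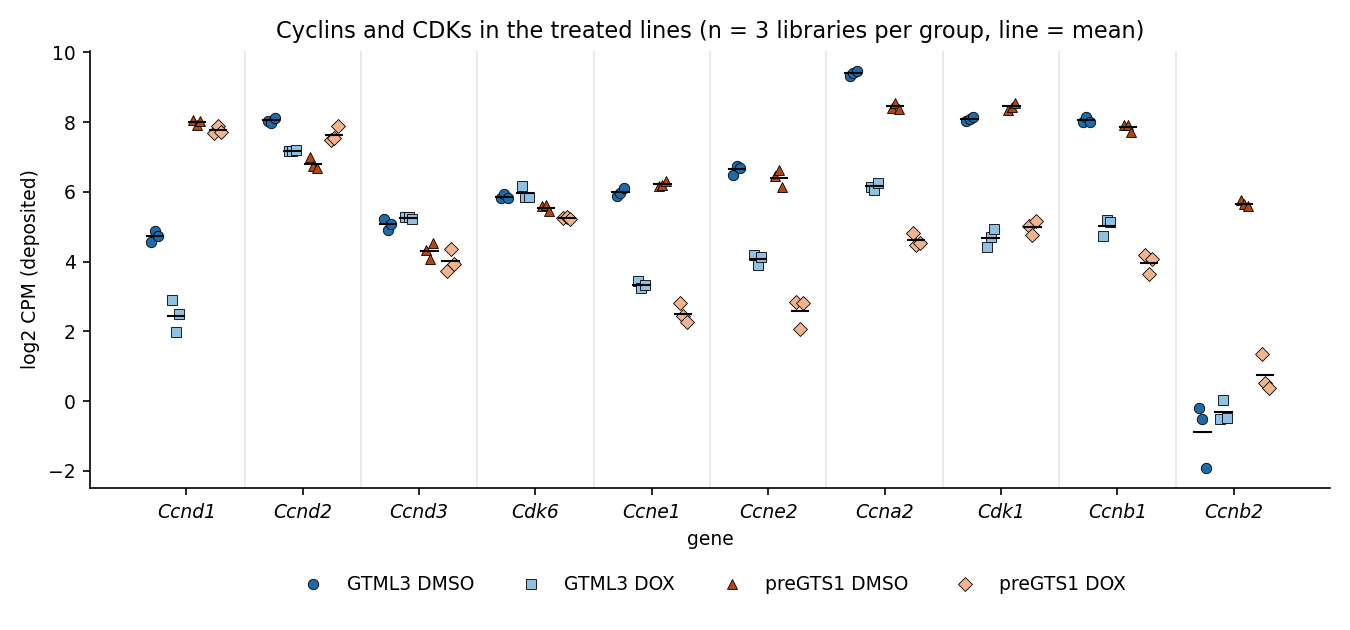
RNA of each member in the 12 treated-line libraries, as log2 CPM on the vertical axis, with 1 point per library, a line at the mean of each group of 3, the genes along the horizontal axis, and the groups GTML3 DMSO, GTML3 DOX, preGTS1 DMSO and preGTS1 DOX side by side within a gene. Cdk1, Ccna2, Ccnb1, Ccne1 and Ccne2 drop under DOX in both lines, Ccnb2 is near 0 in GTML3 throughout, and Ccnd1 is low in GTML3 and high in preGTS1.

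The D-type cyclins did not move together. Ccnd1, which couples growth signals to Cdk4 and Cdk6, had log2 CPM of 4.56, 4.87 and 4.74 in the GTML3 DMSO libraries and of 2.89, 1.98 and 2.50 under DOX. All DOX libraries lay below all DMSO libraries, and the log2 fold change was -2.27 (SE 0.168, limma adjusted p = 3.21e-08, n = 3 per group). The same gene in preGTS1 had log2 CPM of 8.06, 7.93 and 8.03 under DMSO and of 7.68, 7.89 and 7.73 under DOX. Those ranges did not overlap, but the log2 difference of -0.24 did not pass the test (SE 0.168, limma adjusted p = 0.221). The responses of the lines differed by 2.03 log2 units, the fall being deeper in GTML3 (SE 0.238, limma adjusted p = 1.73e-05).

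Ccnd2, which like Ccnd1 has a known role in cerebellar progenitors, changed in opposite directions. Its log2 CPM in GTML3 was 8.03, 7.98 and 8.13 under DMSO and 7.18, 7.16 and 7.19 under DOX. The groups did not overlap, and the log2 fold change was -0.87 (SE 0.103, limma adjusted p = 1.99e-06). In preGTS1 its log2 CPM was 7.0, 6.75 and 6.69 under DMSO and 7.50, 7.54 and 7.88 under DOX. Every DOX library lay above every DMSO library, with a log2 change of 0.83 (SE 0.103, limma adjusted p = 2.94e-06). The test of the difference between the responses gave 1.70 log2 units (SE 0.146, limma adjusted p = 3.41e-07). The test shows unequal responses of this member, and each fold change is relative to the other genes in its library.

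Ccnd3, the remaining D-type cyclin, had log2 CPM of 5.23, 4.91 and 5.07 in GTML3 under DMSO and 5.29, 5.28 and 5.21 under DOX; the log2 difference of 0.19 did not pass (limma adjusted p = 0.278). In preGTS1 it had 4.32, 4.07 and 4.53 under DMSO and 3.74, 4.36 and 3.92 under DOX, with overlapping groups and a log2 difference of -0.30 (limma adjusted p = 0.0854). That value passed in limma fits without preGTS1 DMSO replicate 2 (adjusted p = 0.0312) or without preGTS1 DOX replicate 2 (adjusted p = 0.00548). Its response difference of -0.50 log2 units (limma adjusted p = 0.0734) passed without the same libraries (adjusted p = 0.0363 and 0.00807). Cdk6, a catalytic partner of the D-type cyclins, had log2 CPM of 5.81, 5.94 and 5.84 in GTML3 under DMSO and 6.16, 5.86 and 5.86 under DOX, which overlapped (log2 difference 0.10, limma adjusted p = 0.362). In preGTS1 it had 5.59, 5.61 and 5.45 under DMSO and 5.24, 5.28 and 5.24 under DOX. These groups were apart by a small margin, a log2 change of -0.30 (SE 0.0915, limma adjusted p = 0.00900). Its response differed between the lines by -0.40 log2 units (limma adjusted p = 0.0226), a call that was lost without GTML3 DMSO replicate 1 (adjusted p = 0.0547), preGTS1 DMSO replicate 1 (0.0523) or preGTS1 DMSO replicate 2 (0.0550), and with replicate number as a block (adjusted p = 0.0569).

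Both E-type cyclins, which activate Cdk2 at the start of DNA synthesis, fell in both lines. Ccne1 had log2 CPM of 5.89, 5.97 and 6.10 in GTML3 under DMSO and 3.45, 3.24 and 3.33 under DOX. No library of one group reached the other, and the log2 fold change was -2.65 (SE 0.128, limma adjusted p = 6.44e-11). In preGTS1 the Ccne1 values were 6.17, 6.20 and 6.31 against 2.81, 2.43 and 2.26, again apart, with a log2 change of -3.72 (SE 0.128, limma adjusted p = 1.07e-12). Ccne2 had log2 CPM of 6.48, 6.76 and 6.70 in GTML3 under DMSO and 4.19, 3.89 and 4.14 under DOX, a log2 change of -2.57 (SE 0.184, limma adjusted p = 1.70e-08). Its preGTS1 values were 6.47, 6.62 and 6.14 against 2.86, 2.08 and 2.80, a log2 change of -3.83 (SE 0.184, limma adjusted p = 1.76e-10). The preGTS1 falls were deeper, with log2 differences between the responses of -1.07 for Ccne1 (limma adjusted p = 0.000248) and -1.26 for Ccne2 (limma adjusted p = 0.00157).

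Ccna2, the cyclin of S phase and G2, had log2 CPM of 9.31, 9.40 and 9.47 in GTML3 under DMSO and 6.15, 6.06 and 6.26 under DOX. The groups lay far apart relative to their spread, and the log2 fold change was -3.24 (SE 0.0933, limma adjusted p = 3.66e-13). In preGTS1 its values were 8.40, 8.56 and 8.39 under DMSO and 4.81, 4.49 and 4.54 under DOX, a log2 change of -3.83 (SE 0.0933, limma adjusted p = 7.09e-14). The preGTS1 response was deeper by a log2 difference of -0.60 (SE 0.132, limma adjusted p = 0.00206).

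Cdk1, the kinase of mitotic entry, had log2 CPM of 8.03, 8.08 and 8.15 in GTML3 under DMSO and 4.42, 4.71 and 4.93 under DOX, a log2 change of -3.40 (SE 0.119, limma adjusted p = 2.15e-12). In preGTS1 it had 8.36, 8.43 and 8.56 under DMSO and 5.01, 4.77 and 5.17 under DOX, a log2 change of -3.47 (SE 0.119, limma adjusted p = 1.09e-12). Every DOX library lay below every DMSO library in both lines. A difference between the responses was not detected for Cdk1 (-0.07 log2 units, SE 0.169, limma adjusted p = 0.772), which does not show that they were equal.

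Ccnb1, a partner of Cdk1 in mitosis, had log2 CPM of 8.01, 8.13 and 7.99 in GTML3 under DMSO and 4.72, 5.21 and 5.15 under DOX, a log2 change of -3.02 (SE 0.140, limma adjusted p = 9.11e-11). In preGTS1 it had 7.91, 7.90 and 7.72 under DMSO and 4.19, 3.64 and 4.06 under DOX, a log2 change of -3.88 (SE 0.140, limma adjusted p = 4.29e-12). The groups did not overlap in either line, and the preGTS1 fall was deeper by a log2 difference of -0.86 (SE 0.198, limma adjusted p = 0.00300).

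Ccnb2, the other mitotic B-type cyclin, was close to undetected in GTML3. The GTML3 DMSO libraries held 18, 11 and 5 Ccnb2 reads, and the DOX libraries 8, 13 and 13. Those counts overlapped, and the fitted log2 difference of 0.56 did not pass (SE 0.387, limma adjusted p = 0.222). The preGTS1 libraries held 1183, 1083 and 989 reads under DMSO and 46, 23 and 21 under DOX. On the log2 CPM scale these were 5.76, 5.65 and 5.59 against 1.35, 0.52 and 0.36, a log2 change of -4.92 (SE 0.387, limma adjusted p = 1.43e-08). The response difference of -5.47 log2 units (SE 0.548, limma adjusted p = 1.73e-06) therefore sets a fall in 1 line against a gene already near its floor in the other.

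**Figure D2:**
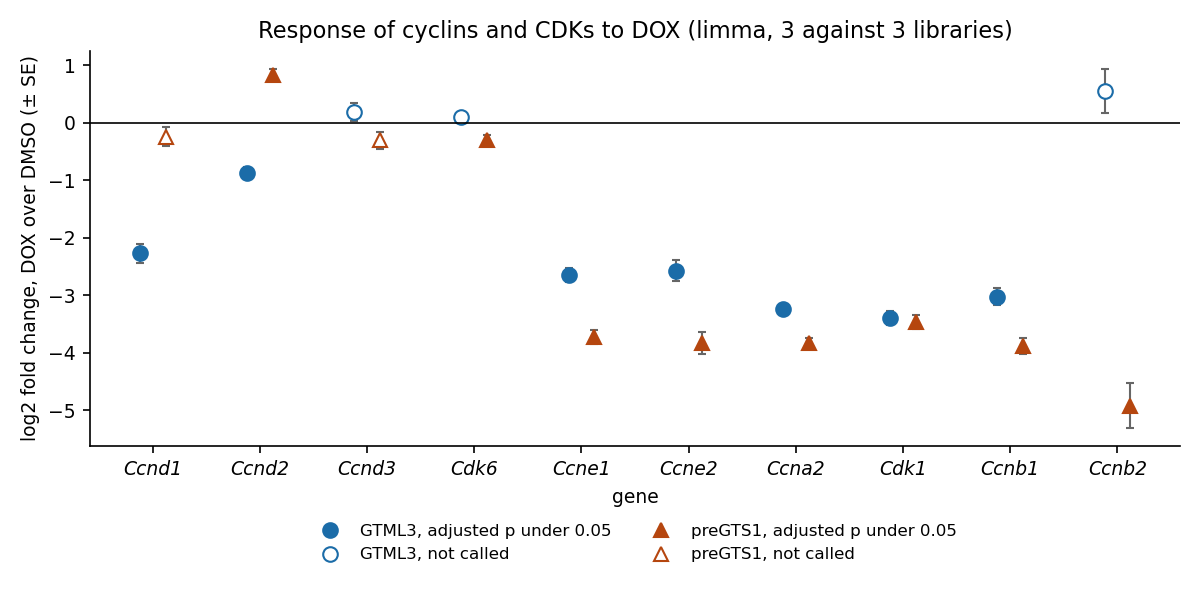
Log2 fold change with DOX for each member in GTML3 and preGTS1, with bars for the standard error of the limma fit on 3 libraries per group. Cdk1 lies at -3.40 and -3.47, Ccnd2 lies on opposite sides of 0 at -0.87 and 0.83, and Ccnb2 lies at 0.56 in GTML3 and -4.92 in preGTS1.

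Across members, the test of the difference between the lines' responses called 8 of 10, with 6 more negative and 2 (Ccnd1 and Ccnd2) more positive in preGTS1. Over all genes 42.2% were called, 25.1% more negative and 17.1% more positive in preGTS1. Ccnd3 and Cdk1 did not pass that test.

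The lines also differed before treatment. Under DMSO, 3 members were higher in preGTS1 than in GTML3 (Ccnb2, Ccnd1 and Cdk1) and 4 were lower (Ccnd2, Ccna2, Ccnd3 and Cdk6), where 66.4% of all genes differed, 38.5% higher and 27.9% lower. Ccnd1 was 9.73-fold higher in preGTS1 (log2 difference 3.28, limma adjusted p = 8.41e-10) and Ccnd2 was 2.35-fold lower (log2 difference -1.23, limma adjusted p = 4.50e-08). Ccna2 differed by -0.95, Ccnd3 by -0.76 and Cdk6 by -0.31 log2 units (limma adjusted p = 2.92e-07, 0.000359 and 0.00713). Cdk1 was higher by 0.36 log2 units (limma adjusted p = 0.0138), which did not pass after centring each library on its median gene (adjusted p = 0.0694) or without preGTS1 DMSO replicate 3 (adjusted p = 0.0560). The median of all genes in this comparison was 0.13 log2 units. Ccnb1, Ccne1 and Ccne2 differed by -0.20, 0.24 and -0.24 log2 units, none past the threshold.

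Under DOX all 10 members differed between the lines, 4 higher and 6 lower in preGTS1, against 72% of all genes, 36.9% higher and 35% lower. Ccnd1 was 39.7-fold higher in preGTS1 (log2 difference 5.31, SE 0.168, limma adjusted p = 3.65e-12). Ccnd2 was now also higher there, by 0.46 log2 units (limma adjusted p = 0.000832), in contrast to its DMSO difference. The gap between the log2 CPM of Ccnd1 and that of Ccnd2 averaged -3.32 in GTML3 and 1.19 in preGTS1 under DMSO, and -4.72 and 0.13 under DOX. These gaps compare groups, not the genes, whose lengths were not used. Ccnb2 (1.07) and Cdk1 (0.30) were higher with limma adjusted p of 0.0219 and 0.0359. The Ccnb2 call was lost without GTML3 DOX replicate 1 (adjusted p = 0.0625), GTML3 DOX replicate 3 (0.0639) or preGTS1 DOX replicate 1 (0.110). The Cdk1 call was lost after median centring (adjusted p = 0.132) and without GTML3 DOX replicate 1 (0.200) or 2 (0.0611) or preGTS1 DOX replicate 1 (0.0814) or 3 (0.165). Ccna2 (-1.54), Ccne2 (-1.50), Ccnd3 (-1.26), Ccnb1 (-1.06), Ccne1 (-0.84) and Cdk6 (-0.71) were lower.

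Other genes of the pathway were followed as lists named with earlier results of these data known, so their counts are descriptions, to be read beside the shares of all genes that fell (31.4% in GTML3 and 33.7% in preGTS1) and rose (34.5% in each). All 10 E2F and DP factors fell in GTML3 and 9 of 10 in preGTS1. E2f7 and E2f8, repressors of the E2F family, fell by 2.98 and 2.90 log2 units in GTML3 and by 3.68 and 3.73 in preGTS1. E2f2, an activator, fell by 2.90 and 3.26. Of 8 genes of the MuvB complex with its Myb and Foxm1 partners, which act at late cell cycle promoters, 6 fell in GTML3 and 7 in preGTS1, none rising. Mybl2 fell by 3.41 and 3.34 log2 units and Foxm1 by 2.21 and 2.19.

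The 6 phosphatases and kinases that act on CDKs all fell in both lines. Cdc25c, which removes an inhibitory phosphate from Cdk1, fell by 2.78 log2 units in GTML3 and 3.71 in preGTS1, and Plk1, a mitotic kinase, by 2.71 and 3.19. Among 11 genes of cyclin degradation, 7 fell and 1 rose in GTML3, and 8 fell and 1 rose in preGTS1. Ube2c and Cdc20, which serve the anaphase-promoting complex, fell by 2.88 and 2.52 log2 units in GTML3 and by 3.26 and 3.17 in preGTS1. Of 8 other cell cycle CDKs, cyclins and CDK subunits, 6 fell in GTML3 and 7 in preGTS1, among them Ccnf (-2.66 and -3.25) and Cks2 (-2.66 and -3.57). The median log2 fold change of that list was -1.54 in GTML3 and -1.49 in preGTS1.

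The CDK inhibitors and retinoblastoma proteins were mixed, with 4 higher and 4 lower of 9 in GTML3, and 4 higher and 2 lower in preGTS1. Cdkn1c, which encodes the inhibitor p57, rose by 4.66 log2 units in GTML3. Under DMSO it was 6.75 log2 units higher in preGTS1 than in GTML3. The response of preGTS1 minus that of GTML3 was -4.74 for Cdkn1c (limma adjusted p = 0.00221). Rbl1, a relative of the retinoblastoma gene, fell by 1.80 log2 units in GTML3 and by 2.13 in preGTS1. Cdkn1a, which encodes p21, fell by 1.18 log2 units in GTML3 but rose by 1.66 in preGTS1, and the responses differed by 2.84 (limma adjusted p = 3.86e-06). Cdkn1b, which encodes p27, rose by 1.68 log2 units in preGTS1. Among 23 cyclins and CDKs of transcription and other roles, 9 rose and 5 fell in GTML3, and 10 rose and 10 fell in preGTS1. Ccng2, an atypical cyclin, rose by 2.73 and 1.31 log2 units. The median log2 fold change of those 23 genes was 0.04 in GTML3 and 0.02 in preGTS1, close to that of all genes.

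To find genes with patterns closest to a member, values were centred on each gene's mean and compared by root mean square (RMS) difference. Over the 12 treated-line libraries Cdk1 was nearest to Melk (RMS difference 0.125 log2 units), followed by Mcm5 and Chek2. Ccnd1 was nearest to Tead4 (0.377), then Sema5a and Abcc4, and Ccnd2 to Ttc9 (0.211), then Pard3b and Nanos1. Ccnd3 was nearest to Lhpp (0.127), then Idh3g and Ppme1. The nearest genes thus differed for each D-type cyclin and Cdk1.

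In the tumors none of the 10 members differed between GTS and GTML in the limma model with batch, in which 9 of 15708 genes (0.0573%) passed. At an unadjusted p under 0.05 there were 3067 genes, and without the batch term 924 genes (5.88%) passed, though that model's errors are too small because a batch mean had been removed before deposit. The count with batch was 585 without GTS tumor 2 and 319 without GTS tumor 3. Every member's GTS range overlapped its GTML range. The share of all genes with overlapping ranges was not counted, so whether this is particular to the members is not known.

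Ccnd2 had the largest tumor difference of the members. Its log2 CPM in GTML tumors was 6.53 at the lowest, 8.18 at the median and 8.49 at the highest, and in GTS tumors 5.64, 6.50 and 7.89. The GTS tumors tended to lie low, with a log2 difference of -1.35 (SE 0.439, limma adjusted p = 0.141). It was -0.76 within the lower-numbered batch and -2.01 within the higher-numbered one. Ccnd1 was nearly level, at 6.60, 7.0 and 7.65 in GTML and 6.19, 7.18 and 7.51 in GTS (log2 difference -0.09, limma adjusted p = 0.857). The gap of Ccnd1 over Ccnd2 was above 0 in 1 of 8 GTML tumors and 3 of 6 GTS tumors. Ccnd3 had log2 CPM of 3.68, 3.98 and 5.61 in GTML and 3.24, 4.10 and 5.0 in GTS. Cdk6 had 2.84, 3.52 and 4.46 in GTML and 2.38, 3.11 and 4.55 in GTS. Neither difference passed the limma test (log2 differences -0.31 and -0.27, adjusted p = 0.705 and 0.771).

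Among the later cell cycle members, Ccnb1 ran at 6.17, 6.57 and 7.37 log2 CPM (lowest, median and highest) in GTML and 4.13, 5.69 and 6.68 in GTS, a log2 difference of -0.99 (SE 0.371, limma adjusted p = 0.183). Ccna2 ran at 7.08, 7.40 and 7.92 in GTML and 5.60, 6.69 and 7.92 in GTS (log2 difference -0.69, limma adjusted p = 0.256). Cdk1 ran at 6.34, 6.80 and 7.23 in GTML and 4.96, 6.21 and 7.25 in GTS (log2 difference -0.65, limma adjusted p = 0.266). For these genes GTS tumor 1 was the lowest of all tumors and GTS tumor 2 the highest of the GTS tumors, so the GTS tumors spread more widely than the GTML tumors. Without GTS tumor 2, Ccna2 alone passed (log2 difference -1.14, limma adjusted p = 0.0396). Ccnb2 was plainly present in every tumor, at 4.98, 5.45 and 5.94 in GTML and 4.12, 5.25 and 6.32 in GTS. Ccne1 (5.08, 5.73 and 6.54 against 4.73, 5.75 and 6.18) and Ccne2 (5.37, 5.70 and 6.65 against 5.10, 5.79 and 6.65) had close medians in both kinds of tumor.

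**Figure D3:**
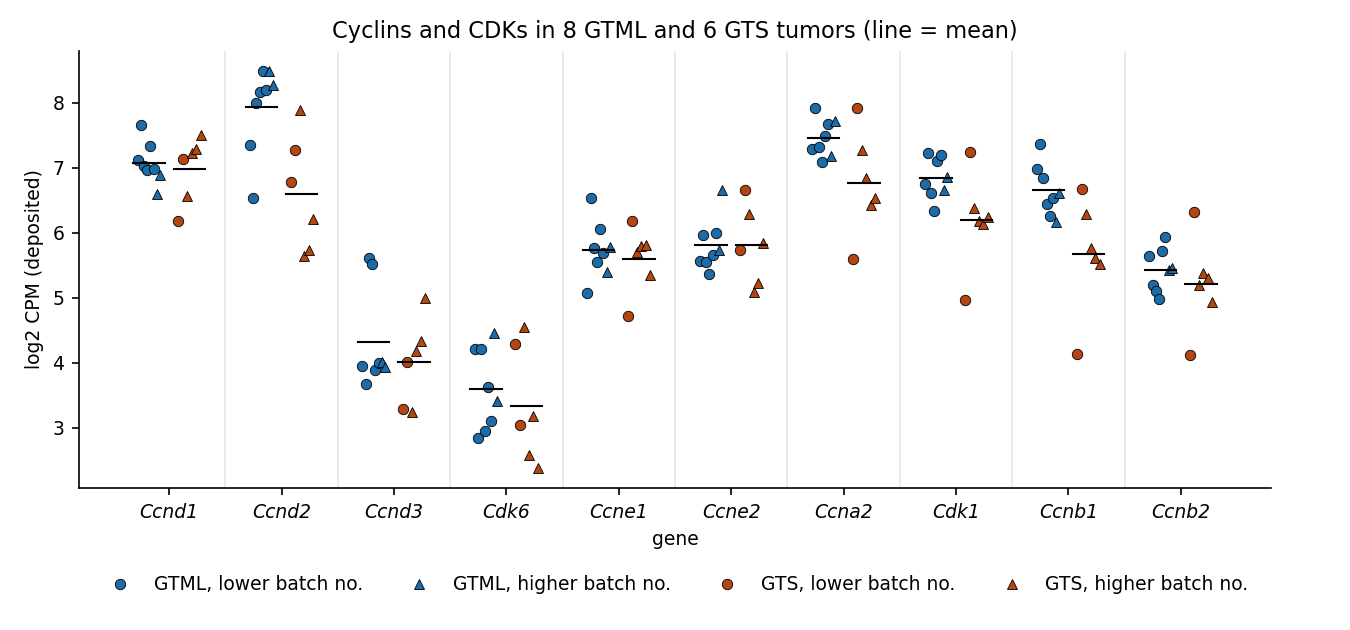
RNA of each member in 8 GTML and 6 GTS tumors, as log2 CPM, with 1 point per tumor, circles for the lower-numbered batch, triangles for the higher-numbered one, and a line at each group mean. The groups overlap for every member, and Ccnd2 shows the widest gap, with means of 7.94 and 6.59.

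Phase and cell type marker sums overlapped between the tumor kinds, and none of the 40 S-phase, 50 G2/M, 11 microglia and macrophage or 5 astrocyte genes passed the limma threshold. The 40 S-phase genes summed to 3800 to 6938 CPM in GTML tumors (median 4875) and 1464 to 4923 in GTS tumors (median 2373). The 50 G2/M genes summed to 6919 to 12024 (median 8901) and 2995 to 8771 (median 5260). The median log2 difference was -0.90 over each of these 2 lists, against -0.29 over the members and -0.075 over all genes. Summed microglia and macrophage markers (11 of 11 listed) were 153 to 638 CPM in GTML (median 287) and 287 to 770 in GTS (median 464). Summed astrocyte markers (5 of 5) were 63.6 to 463 (median 163) and 96.2 to 971 (median 411). The part of the phase and cell type lists in the members' differences was not tested. All 7 pathway lists had no gene past the threshold in the tumors. Over the 14 tumors the gene nearest to Cdk1 in pattern was Tpx2 (RMS difference 0.138 log2 units), followed by Aurka and Spdl1, all genes of the mitotic spindle or its checkpoint. Ccnd2 was nearest to Zfpm1 (0.324), Ccnd1 to Tsr1 (0.206) and Ccnd3 to Ss18 (0.300).

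Open chromatin near the members was compared as merged CPM of 2 duplicates, which were taken as 1 sample, so there is no test and a region is described as past a 2-fold ratio of CPM + 1. Coordinates in this and the next paragraphs are on mm9, with distances from the start to the region's centre in chromosome direction. The duplicates differed by a chi-square per degree of freedom of 1.88 to 2.05, more than counting error gives. The variance behind each counting interval below was multiplied by the mean of that value over the groups compared. These intervals do not cover the spread between separate samples. The GTML3 libraries were the shallower, with 0.827 to 1.75 M reads in regions against 5.85 to 7.77 M for preGTS1. With DOX in GTML3, 3 of 22 regions were past 2-fold lower and 0 higher, against 9.79% lower and 13.8% higher of all regions, while 8 regions were past 2-fold without replicate 1 and 4 without replicate 2. With DOX in preGTS1, 2 of 22 were lower and 0 higher, against 8.43% and 11.8%. The shares lower are close to the background, while no member region was past 2-fold higher. The median log2 ratio over the member regions was -0.30 in GTML3 and -0.51 in preGTS1, against 0.106 and 0.025 over all regions at 1 CPM or more.

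The region at the Ccnd1 start, chr7:152125448-152126316, was lower under DOX in both lines. In GTML3 its duplicates had 36.6 and 32.3 CPM under DMSO and 14.5 and 14.5 under DOX, from 118 and 26 reads, a log2 ratio of -1.20. In preGTS1 they had 22.04 and 26.5 CPM under DMSO and 8.82 and 10.1 under DOX, from 355 and 117 reads, a log2 ratio of -1.29. Ccnd1 RNA fell past its test in GTML3 (log2 difference -2.27), while its difference of -0.24 in preGTS1 did not pass. These RNA responses differed by 2.03 log2 units between the lines (limma adjusted p = 1.73e-05), where the chromatin ratios were close. The Ccnd1 start region was the only one of the 10 regions nearest to a start that passed 2-fold with DOX in either line. Its counting intervals, -2.10 to -0.41 in GTML3 and -1.79 to -0.96 in preGTS1, include ratios under 2-fold.

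The merged ratios at the start regions of the members whose RNA fell most stayed within 2-fold. At Cdk1, chr10:68814981-68816138, the merged CPM was 49.7 under DMSO and 36.2 under DOX in GTML3, and 51.5 and 36.9 in preGTS1 (log2 ratios -0.45 and -0.47). At Ccne1 the log2 ratios were 0.30 and 0.09 and at Ccne2 they were -0.15 and 0.07. At Ccna2 they were -0.38 and -0.28, and at Ccnb1 -0.16 and -0.78. At Ccnb2, whose RNA fell in preGTS1 only, the merged CPM there was 7.02 under DMSO and 3.62 under DOX. That log2 ratio was -0.79, with a counting interval (-1.66 to -0.25) that reaches past 2-fold. The intervals at Cdk1 in GTML3 (-1.03 to 0.11) and at Ccnb1 in preGTS1 (-1.24 to -0.42) reach past it too. The ATAC tables place the Ccna2 start differently, 1092 bases from the region's centre in the table of lines and 16 in the GFP table. RNA falls of 5.95-fold or more with DOX at these genes were thus accompanied by chromatin ratios under 2-fold at this depth.

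**Figure D4:**
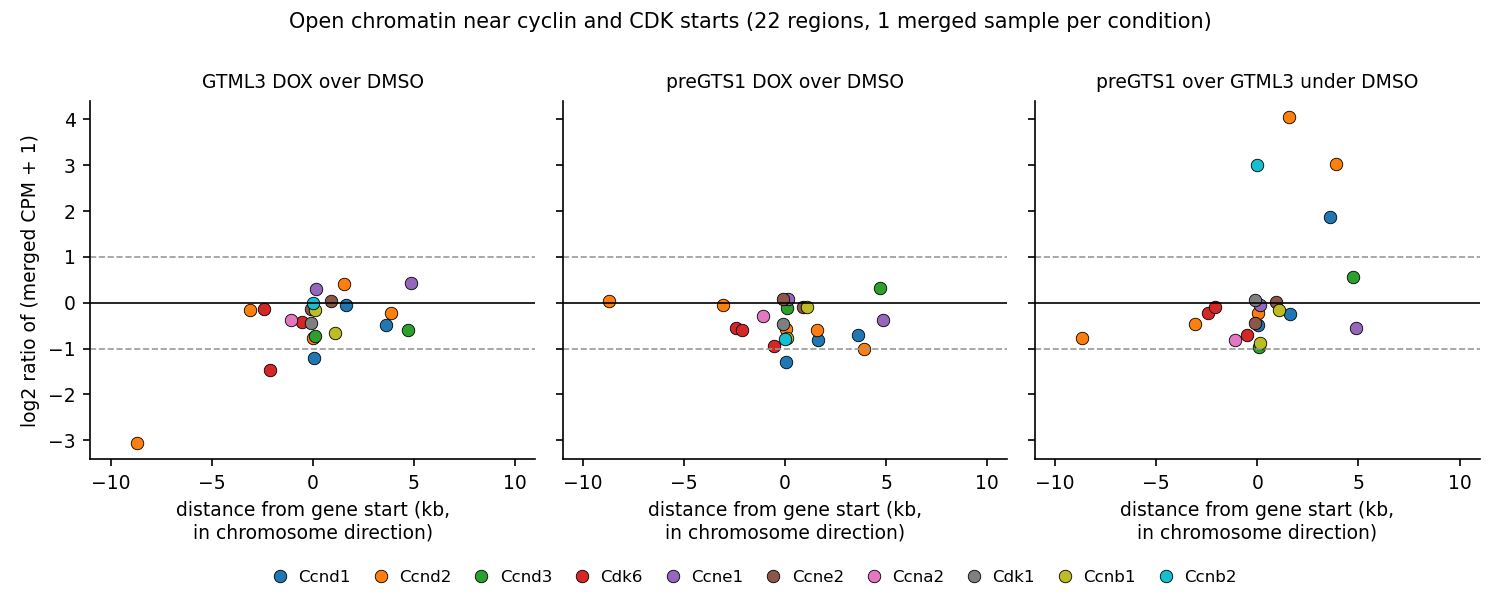
Log2 ratio of merged ATAC CPM + 1 at the 22 regions near member starts, against distance from the start in kb, for DOX over DMSO in GTML3 and in preGTS1 and for preGTS1 over GTML3 under DMSO. Dashed lines mark 2-fold; the Ccnd1 start lies at -1.20 and -1.29 with DOX, and 2 Ccnd2 regions lie at 4.05 and 3.02 between the lines.

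Between the lines under DMSO, 4 of 22 regions were past 2-fold higher in preGTS1 and 0 lower, against 22.4% and 6.38% of all regions. The median log2 ratio of all regions at 1 CPM or more was 0.289 here, and dividing by it gave 4 member regions higher and 4 lower. Those 4 were at Ccnd2 (2 regions), Ccnd1 and Ccnb2. At Ccnd2 the region chr6:127102344-127102900, 1556 bases from the start, held 366 reads in preGTS1 and 2 in GTML3 (25.2 and 0.585 CPM), a log2 ratio of 4.05 (counting interval 2.66 to 8.19). The region chr6:127104680-127105216, 3882 bases away, held 275 and 5 reads (log2 ratio 3.02, or 2.51 and 3.72 with either duplicate alone), and under DOX it was lower in preGTS1 (log2 ratio -1.02, or -0.99 without replicate 1). Ccnd2 RNA was nonetheless lower in preGTS1 than in GTML3 under DMSO, and the start region itself was similar, at 17.5 and 20.5 CPM. At Ccnd1 the region 3598 bases away, chr7:152129241-152129616, held 101 reads in preGTS1 and 4 in GTML3 (log2 ratio 1.87), where Ccnd1 RNA was also higher.

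Of those Ccnd1 and Ccnd2 regions, the Ccnd2 region at 1556 bases and the Ccnd1 region at 3598 bases were past 2-fold higher than in GTML3 in both GTS sources. GTS1 over GTML3 had 5 of 22 regions past 2-fold higher and 0 lower, against 20.3% and 18.8% of all regions, and GTS2 had 4 higher and 2 lower, against 19.1% and 27.6%. These comparisons share the GTML3 DMSO libraries with that of preGTS1. The Ccnd2 region at 1556 bases had 13.8 CPM in GTS1 and 8.09 in GTS2, and the Ccnd1 region at 3598 bases had 18.1 and 7.39. The Ccnd2 region at 3882 bases had 5.26 CPM in GTS1 (log2 ratio 1.35, or 0.65 without replicate 1) and 1.41 in GTS2 (log2 ratio -0.03). In GTS2 the Ccnd2 start had 7 reads against 70 in GTML3 (2.46 and 20.5 CPM, log2 ratio -2.63), and a region 3090 bases away, chr6:127097762-127098189, had 2 against 62 (log2 ratio -3.49, counting interval -7.49 to -1.88, and -2.49 without replicate 1). A Ccne1 region 4865 bases from the start, chr7:38896905-38897843, had 47.4 CPM in GTS1 against 8.78 in GTML3 (log2 ratio 2.31). A Ccnb1 region 1080 bases from the start, chr13:101557417-101557624, had 31 reads in GTS2 against 2 in GTML3 (log2 ratio 2.91, counting interval 1.37 to 7.07). Its GTS2 duplicates were unequal, at 3.37 and 16.3 CPM, and without replicate 2 the log2 ratio was 2.13.

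The remaining DOX changes past 2-fold rested on few reads. In GTML3 a Ccnd2 region 8694 bases from the start, chr6:127092026-127092718, held 41 reads under DMSO and 1 under DOX (log2 ratio -3.06, counting interval -8.39 to -0.47). A Cdk6 region 2115 bases away, chr5:3341665-3341889, held 22 and 3 reads (log2 ratio -1.48, counting interval -4.36 to 0.46), an interval that includes 0, and the log2 ratio was -0.71 without replicate 2 and -3.03 without replicate 1. The Cdk6 start region, chr5:3341984-3344747, was at 119 CPM under DMSO and 61.5 under DOX in preGTS1, a log2 ratio of -0.94 beside the small fall of its RNA.

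The Ccnb2 start region, chr9:70269027-70269691, had 0 reads in all 4 GTML3 libraries, where a count of 0 allows up to 0.878 CPM (3 reads) over the DMSO pair. It held 102 reads in preGTS1 under DMSO (7.02 CPM, 8.00-fold that limit). Under DOX it held 45 reads in preGTS1 (3.62 CPM, 2.17-fold the limit of 1.67 CPM in GTML3 under DOX). GTS1 had 19 reads (3.12 CPM, 3.56-fold the DMSO limit) and GTS2 31 (10.9 CPM, 12.4-fold the DMSO limit). These folds leave out the counting error of the higher count, so they are not lower bounds. The GFP and nonGFP fractions had 19.9 and 20.2 CPM there. Ccnb2 in GTML3 was thus low in RNA and at its start region alike.

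Values at other genes and regions were chosen after this had been seen. The start regions of the neighbours Myo1e, Rnf111 and Sltm held 116, 82 and 195 reads in GTML3 under DMSO (33.9, 24.0 and 57.0 CPM), against 31.0, 20.9 and 50.2 CPM in preGTS1. Of 29996 regions at least as open in preGTS1 under DMSO as that of Ccnb2, 43 (0.143%) had 0 reads in all GTML3 libraries, and so did 8 of 10296 (0.0777%) within 1 kb of a start. Of 15926 genes, 34 shared the RNA pattern of Ccnb2, no GTML3 library above 0.02 log2 CPM and no preGTS1 DMSO library under 5.59. GTML tumors and the GTML_SOX9-GFP cells did carry Ccnb2 RNA. The cause of the low Ccnb2 values in GTML3 was not tested.

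Between GFP and nonGFP fractions 0 of 22 member regions were past 2-fold. Few of all regions were (0.759%), so this is not particular to the members. The largest ratio was at a Cdk6 region 1628 bases from the start, with 73 and 32 reads (3.35 and 1.27 CPM, log2 ratio 0.94). Ratios at the regions nearest to the 10 starts ran from -0.20 to 0.39 on the log2 scale.

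Single cells were read in 1 library per tumor kind, so values are compared without a test and their intervals cover counting error only. The GTML_SOX9-GFP library held 4645 cells with a median of 18744 UMIs, where a UMI tags 1 captured molecule, and the fGTS2 library 4498 cells with a median of 20893.5; 6 barcodes were shared. All cells were kept and doublets were not removed. Of 8 cerebellar and Group 3 lineage markers, 4 were listed for the GTML_SOX9-GFP cells at 21.7 UMI CPM (UMIs scaled like the CPM above) in sum, and 2 for fGTS2 at 3.999.

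Ccnd1 was the most counted member in both libraries, at 298 UMI CPM in GTML_SOX9-GFP and 251 in fGTS2. Cdk1 followed at 161 and 162, a ratio of fGTS2 over GTML_SOX9-GFP of 1.01 (95% interval 0.986 to 1.03). Ccnb1 had 87.2 and 105.7 UMI CPM (ratio 1.21, interval 1.18 to 1.25), and Ccna2 had 99.96 and 70.1 (ratio 0.701). Ccnb1 and Ccna2 thus leaned in opposite directions between the libraries. Ccnb2 had 54.3 and 42.0 UMI CPM, Ccne1 23.4 and 19.98, and Ccne2 19.7 and 15.8. All of these ratios were under 2-fold.

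Ccnd3 and Cdk6 were the 2 of 9 members past 2-fold (on UMI CPM + 1), both higher in fGTS2, against 5.85% of 9961 genes higher and 13.4% lower. Ccnd3 had 35.3 UMI CPM in GTML_SOX9-GFP and 78.5 in fGTS2, a ratio of 2.22 (interval 2.14 to 2.31). Cdk6 had 1.82 and 16.7, from 174 and 1720 UMIs, a ratio of 9.17 (interval 7.84 to 10.8). The kinase and the cyclin that can bind each other in G1 were both more abundant in the fGTS2 library, which with 1 library a kind could not be tested over tumors. Neuronal markers also differed, with 6 of 6 listed at 296 UMI CPM in sum for GTML_SOX9-GFP and 5 of 6 at 28.4 for fGTS2, and 3 or more of them in 47.9% and 0.645% of cells. Astrocyte markers summed to 22.9 UMI CPM (2 of 5 listed) and 5.35 (1 of 5). The part of these markers in the Ccnd3 and Cdk6 values was not tested. In the bulk tumors neither gene differed past its spread. Of the UMIs of Ccnd1 and Ccnd3 together, Ccnd1 took 89.4% in GTML_SOX9-GFP and 76.2% in fGTS2. In fGTS2, Ccnd2 had 7.48 UMI CPM, 2.22% of all D-type cyclin UMIs beside 74.5% for Ccnd1 and 23.3% for Ccnd3.

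Cells were put into 5 equal bins per library by the share of their UMIs in 50 G2/M genes, and separately in 40 S-phase genes, with the members taken out of the lists. From the lowest to the highest G2/M bin, Cdk1 ran from 11.4 to 356 UMI CPM in GTML_SOX9-GFP (31.3-fold) and from 5.83 to 430 in fGTS2 (73.8-fold). Ccna2 ran from 6.03 to 211 (35.0-fold) and from 2.47 to 170 (68.6-fold), and Ccnb1 from 6.29 to 209 (33.3-fold) and from 4.59 to 275 (59.9-fold). Ccnb2 ran less steeply, from 6.93 to 104 (15.0-fold) and from 4.94 to 89.7 (18.1-fold). The 4 mitotic members thus rose with the list in both libraries. The bins differ in depth, with median UMIs per cell of 15593 in the lowest and 21854 in the highest G2/M bin of GTML_SOX9-GFP, and 17712 and 28984 in fGTS2. A bin is a range of a continuous share, and 409 and 326 cells lay within 10% of the limit of the highest G2/M bin.

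The D-type cyclins were lower in the highest than in the lowest G2/M bin, though not all fell steadily. Ccnd1 went from 361 UMI CPM in the lowest G2/M bin to 259 in the highest in GTML_SOX9-GFP and from 260 to 220 in fGTS2, a change of 1.40-fold and 1.18-fold. In fGTS2, Ccnd2 went from 11.5 to 4.40 and Ccnd3 from 83.6 to 58.2, while Cdk6 went from 12.8 to 20.2. Ccnd3 went from 35.7 to 27.0 in GTML_SOX9-GFP. It peaked in bin 3 of the G2/M list in both libraries, at 42.6 in GTML_SOX9-GFP and 93.2 in fGTS2. In S-phase bins Ccnd3 was highest in bin 5, at 38.8 and 100, against 34.5 and 81.5 in bin 1. Along the S-phase list the E-type cyclins rose, Ccne1 from 13.0 to 49.0 and Ccne2 from 3.18 to 49.6 in GTML_SOX9-GFP. In fGTS2 they rose from 4.08 to 53.6 and from 1.24 to 44.3. Along the G2/M list the E-type cyclins peaked in bin 3, or in bin 4 for Ccne2 in fGTS2, and were lower again in the highest. From the lowest to the highest G2/M bin Ccne1 went from 15.5 to 12.9 UMI CPM in GTML_SOX9-GFP and from 6.36 to 13.6 in fGTS2, and Ccne2 from 5.33 to 11.6 and from 3.24 to 8.11. The mitotic members were also higher in the highest than in the lowest S-phase bin, Cdk1 by 13.2-fold in GTML_SOX9-GFP and 41.6-fold in fGTS2, Ccna2 by 7.47-fold and 47.6-fold, Ccnb1 by 4.94-fold and 14.4-fold and Ccnb2 by 1.27-fold and 3.03-fold, but each peaked in bin 3 or 4 of that list. In both libraries the E-type cyclins thus peaked in the highest S-phase bin and the mitotic members in the highest G2/M bin, and Ccnd1 stayed within 1.40-fold along the G2/M list.

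**Figure D5:**
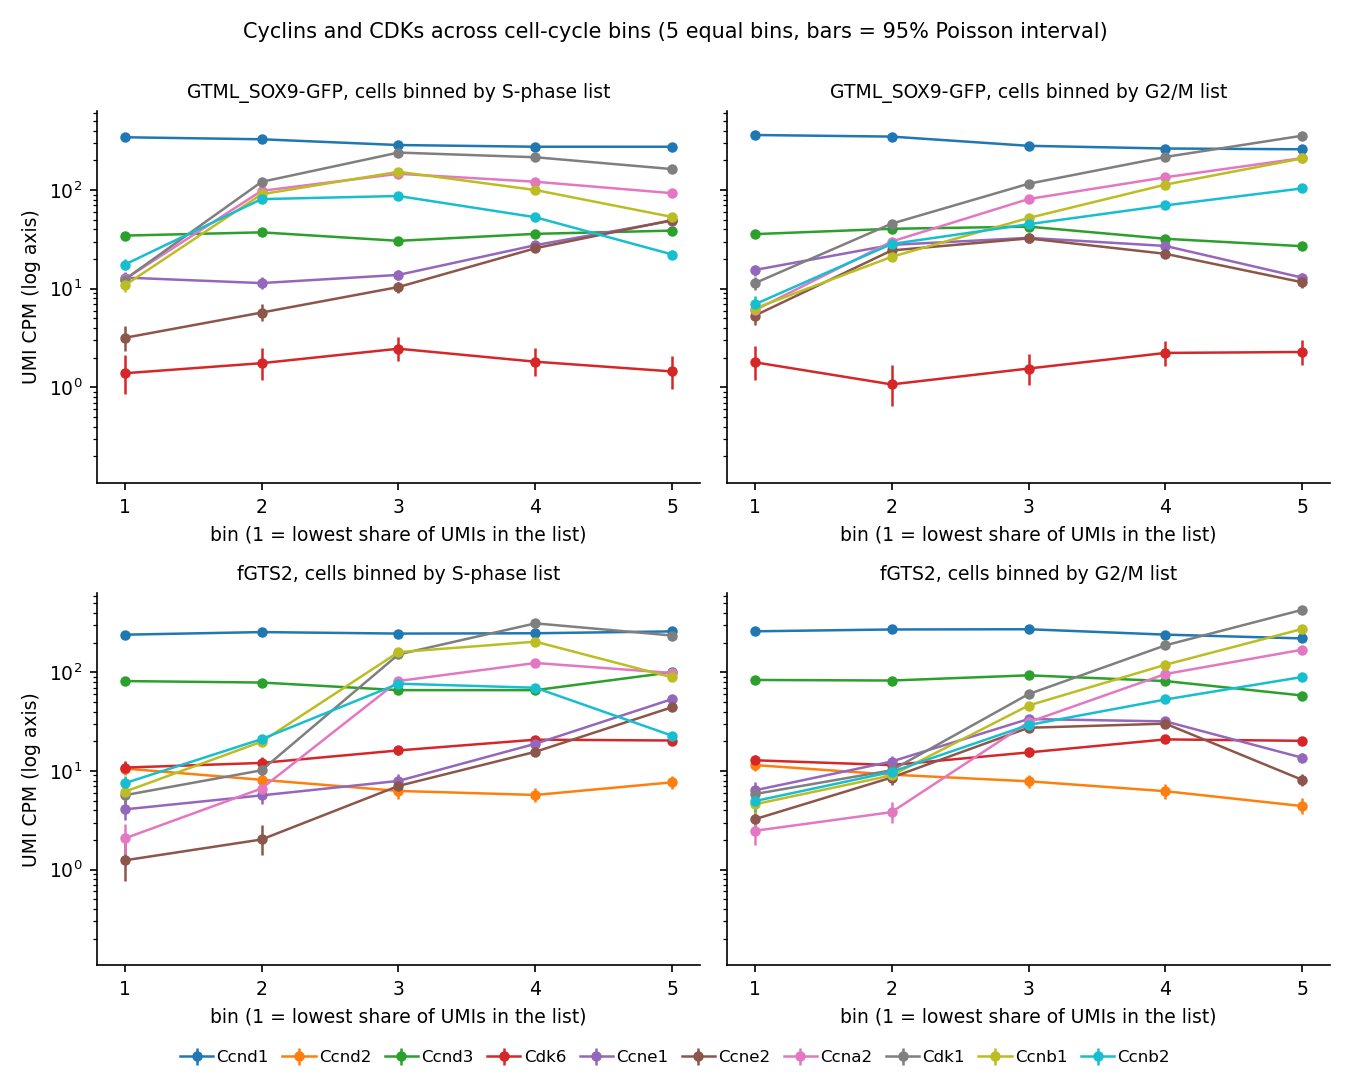
UMI CPM of the members in 5 equal bins of cells ordered by G2/M and S-phase list share (bin 1 the lowest), on a log axis, for the GTML_SOX9-GFP and fGTS2 libraries, with points for the sum over the cells of a bin and bars for 95% Poisson intervals. Cdk1 climbs from 11.4 to 356 and from 5.83 to 430 along the G2/M bins, while Ccnd1 stays between 220 and 361.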

How the data were processed

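The 10 members and the pathway and marker lists were chosen with earlier results of these data known. Builds mm10 and mm9 are named in the submitters' processing notes, with the tools edgeR, limma, MACS2, Seurat 3.0, Cell Ranger 3.3.0, Subread 1.5.2, Bowtie2 2.2 and STAR 2.4.0, and no role is given. For bulk RNA the authors deposited log2 CPM per gene symbol; the analysis plan had assumed linear CPM, and the log2 values were used as they are. From the tumor values a batch mean had been removed (largest remaining batch coefficient 1.78e-14), which hides their depth. Among treated-line values, 100% gave whole reads within 0.1 read, and edgeR on those reads called 10651 genes for DOX in GTML3 and 11406 in preGTS1. For ATAC the authors deposited CPM per region with gene starts and distances; 1 line per table naming no region was dropped. For single cells they deposited UMI counts per gene and cell.

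Groups follow the sample titles. Genes at 1 CPM or more in 6 tumors, or in 3 treated-line libraries, were tested with limma 3.58.1 in R 4.3.3, tumors with a batch term and the 4 treated groups in 1 fit, and p-values were adjusted by Benjamini-Hochberg over all genes tested. Fold changes are differences of the deposited log2 values. edgeR 4.0.16 and DESeq2 1.42.0 were run on the recovered reads as alternatives. ATAC duplicates, with a chi-square per degree of freedom of 1.88 to 2.05 against 4.67 to 85.1 for RNA replicates, were merged, and ratios used CPM + 1. UMI sums have exact Poisson intervals and ratios exact binomial ones at 95%; floors use 3 reads. UMI intervals cover counting error only. ATAC intervals cover counting error widened by the chi-square between duplicates, since reads are not independent molecules. Neither covers the spread between separate tumors or cultures. Named pathway genes are up to 3 per list with the largest change among called genes whose groups do not overlap. The limma step was checked on simulated data. Other filters, centring, pseudocounts, windows, the replicate block and left-out libraries were tried as alternatives. All per-sample columns were used.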

Additional observations from a re-analysis of the deposited data

Results flagged for a closer look

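The DOX responses of the lines differed by the limma test of the difference itself for 8 members. As log2 differences, preGTS1 minus GTML3, they were -0.60 for Ccna2, -0.86 for Ccnb1, -5.47 for Ccnb2, 2.03 for Ccnd1, 1.70 for Ccnd2, -1.07 for Ccne1, -1.26 for Ccne2 and -0.40 for Cdk6, with 3 libraries per condition in each line. Ccnd2 is the member whose RNA fell in 1 line and rose in the other, and Ccnb2 was near its floor in GTML3 throughout. In none of the 20 member groups of tumors did 1 tumor lie apart from the rest by Dixon's test. That test takes the gap next to 1 end value, so it can miss 2 tumors that lie together. Ccnd3 had log2 CPM of 5.61 and 5.52 in GTML tumors 3 and 4, and at most 4.01 in the other GTML tumors.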

How the results depend on the processing

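The counts of members called with DOX (7 and 8), in the response difference (8) and between the lines (7 and 10) were the same with edgeR and DESeq2 on the recovered reads. Replicate numbers did not pair the libraries (correlations of same-numbered libraries -0.50 to 0.13). With replicate number as a block the members called were 7, 8, 7, 7 and 10 in that order, Cdk6 being lost from the response difference (adjusted p = 0.0569).

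In the tumors the genes called were 924 without the batch term, 20 after median centring and 2 to 585 with 1 tumor left out (585 without GTS tumor 2, 319 without GTS tumor 3), and the members called 0 to 1. No member passed when its sign turned: Ccnd1 0.018 and Ccne2 0.10 after median centring; Ccnd1 0.40, Ccnd3 0.22 and Ccne1 0.072 in the higher-numbered batch; Ccne2 0.51 and Cdk6 0.18 in the lower-numbered one. With 1 tumor left out, uncalled values crossed 0 for Ccnb2 (-0.66 to 0.20), Ccnd1 (-0.25 to 0.22), Ccne1 (-0.37 to 0.20), Ccne2 (-0.34 to 0.29) and Cdk6 (-0.64 to 0.033). In the lines the same held for Cdk6 with DOX in GTML3 (-0.0016 to 0.15) and for the Cdk1 response difference (-0.20 to 0.053), and with 1 library left out the members called were 7 to 7, 8 to 9, 7 to 9, 6 to 7 and 8 to 10.

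Member regions past 2-fold within 1 kb of a start were 1 (GTML3 DOX), 1 (preGTS1 DOX), 1 (preGTS1 over GTML3), 1 (GTS1) and 2 (GTS2). Dividing by the median ratio gave 8 for preGTS1 over GTML3, 4 higher and 4 lower, and a pseudocount of 0.25 CPM gave 1 for GFP. With 1 duplicate, counts were 4 to 8 (GTML3 DOX), 2 to 2 (preGTS1 DOX), 4 to 6 (preGTS1 over GTML3), 6 to 8 (GTS1), 6 to 7 (GTS2) and 0 to 2 (GFP). The cause of these shifts was not tested. GTML3 ATAC depth limits what can be seen in small regions.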
